A study of Mus musculus with 22 samples.

Results

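The respiratory chain subunits described here are 81 genes of the 19938 that carried a single symbol on the array. They were chosen by symbol alone: Nduf followed by a, b, c, s or v and a digit, Sdha to Sdhd, Uqcr, Cox followed by a digit from 4 to 8, or Atp5. The symbols gave 35 genes of complex I, 4 of complex II, 8 of complex III, 17 of complex IV and 17 of complex V. Of these, 16 had several probe sets, and the brightest of them, by its mean on the 22 arrays, stood for the gene. Ndufa4 is counted under complex I by its name, although it is now assigned to complex IV. Ndufa4l2, an inducible paralogue of Ndufa4, and Cox7a2l, a factor that joins complexes III and IV into supercomplexes, matched the rule but are not structural subunits. Probe sets that shared symbols with a copy of Cox7c, Ndufb4 or Ndufs5 numbered 6 and were left out. The 13 subunits encoded in mitochondrial DNA were not analysed here.

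The study followed pancreatic neuroendocrine tumours of RIP1-Tag2 mice, in which the rat insulin promoter drives the simian virus 40 large T antigen in beta cells. RNA of 22 samples was hybridised to Affymetrix Mouse Gene 1.0 ST arrays, one-colour arrays that measure each gene as a log2 intensity. The groups were normal islets (n = 3), hyperplastic islets (n = 3), angiogenic islets (n = 3), islet tumours (n = 5), met-like primaries (n = 5) and liver metastases (n = 3). All 22 samples carry the RIP1-Tag2 genotype label, the normal islets included, so no group lacks the transgene. The labels give no age, no sex and no animal for a sample, and how a primary tumour was classed as met-like was not given in the sources used here. Nothing says which samples came from separate animals, so p-values measure the spread between these samples, which may in part be technical.

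The respiratory chain passes electrons from NADH (complex I) and succinate (complex II) through ubiquinone, complex III and cytochrome c to oxygen at complex IV, and the proton gradient this builds drives ATP synthesis at complex V. Most subunits are encoded in the nucleus and are made in step with partners from mitochondrial DNA. In beta cells this pathway couples glucose use to insulin release, since ATP closes the potassium channel that sets the membrane voltage. Several complex IV subunits exist as isoforms that differ between tissues, such as Cox6a1 and the heart and muscle form Cox6a2.

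Insulin (Ins2) was present at log2 intensities of 9.87 or more on each array, but a list of 10 beta-cell markers averaged 11.62 to 11.67 in normal islets, 10.6 to 11.1 in islet tumours, 8.37 to 9.05 in met-like primaries and 8.95 to 9.62 in liver metastases. The mean of 16 hepatocyte markers was 10.03 to 10.53 in the liver metastases and 6.41 to 8.78 on the other arrays, with angiogenic islets reaching the highest value of those others. Acinar markers (8 genes) averaged from 8.85 to 12.1 within the 3 normal-islet arrays alone. Xist, the transcript of the inactive X chromosome, was 10.7 to 11.4 in islet samples and 5.33 to 6.46 in tumours and metastases, so the sex of the animals and the step from islets to tumours cannot be told apart. In bulk RNA, fewer cells of a type and less RNA per cell cannot be told apart either.

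The ranges of respiratory chain genes across the 6 tissue labels were near those of all genes. The range between the highest and the lowest of a gene's 6 group means was under 0.5 log2 for 55 of the 81 members and over 1 log2 for 2, Cox6a2 and Atp5o. The median range was 0.38, against 0.43 over all genes, so most genes of the array also lay under 0.5 log2. By limma's F test over the 6 labels (adjusted p below 0.05), 50 of the 81 members and 58.7% of all genes changed, which are similar shares. The 31 members that did not pass include Sdhb, Uqcrfs1 (the Rieske iron-sulphur protein of complex III) and Atp5b (the catalytic beta subunit of the F1 head).

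Between neighbouring stages the counts of changed members were low until the metastases. Hyperplastic against normal islets gave 0 members higher and 2 lower, with 8.64% of all genes called in either direction (4.46% higher and 4.17% lower). Angiogenic against hyperplastic islets gave 0 members called by limma (2.53% of all genes, 2.29% higher and 0.246% lower), with 3 members at an unadjusted p below 0.05. Islet tumours against angiogenic islets gave 1 member lower and 0 higher (9.54% of all genes, 3.09% higher and 6.45% lower), which became 1 higher, Cox8b, and 0 lower under quantile normalisation or median centring.

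Met-like primaries against islet tumours gave 4 members higher and 6 lower, that is 12.3% of members against 26.5% of all genes (12.3% higher and 14.2% lower). The split was 3 higher and 10 lower under quantile normalisation. In this step all 10 beta-cell markers and 8 of 10 endothelial markers were lower, and their part in the member values was not tested. Liver metastases against met-like primaries gave 18 higher and 5 lower, 28.4% of members against 15.7% of all genes (7.8% higher and 7.87% lower). The median member difference was 0.17, against -0.01 over all genes.

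Against normal islets, 12 members were lower and 0 higher in islet tumours (29% of all genes called, 13% higher and 16.1% lower), and 24 were lower and 4 higher in met-like primaries (42.8% of all genes, 19.5% higher and 23.3% lower). These counts depended on normal islet replicate 2, on which the median member stood 0.20 log2 above the normal-islet mean. In both comparisons all 9 proliferation markers, 6 of 8 macrophage markers and 5 of 8 fibroblast markers were higher, and 5 and 10 of the 10 beta-cell markers were lower. The proliferation mean was 6.57 to 8.26 in normal islets, 9.63 to 10.004 in islet tumours and 9.49 to 10.32 in met-like primaries, and the macrophage mean 6.57 to 6.74, 7.21 to 7.82 and 7.16 to 7.79. The fibroblast mean was 7.38 to 8.37, 8.13 to 8.71 and 8.33 to 9.17 in those groups, and the part of these cell types in the member values was not tested. Without normal islet replicate 2 the tumour comparison gave 4 higher and 4 lower, and the met-like comparison 9 higher and 9 lower. The shares of all genes called in those fits are not set beside these counts, so a dependence particular to the members is not shown. Under quantile normalisation the splits were 3 higher and 8 lower in the tumours, and 8 higher and 17 lower in the met-like primaries. Liver metastases against islet tumours gave 27 higher and 8 lower, 43.2% of members against 36.6% of all genes (17.3% higher and 19.3% lower). Comparisons that share a group share its arrays, so their counts are not separate evidence.

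**Figure D1:**
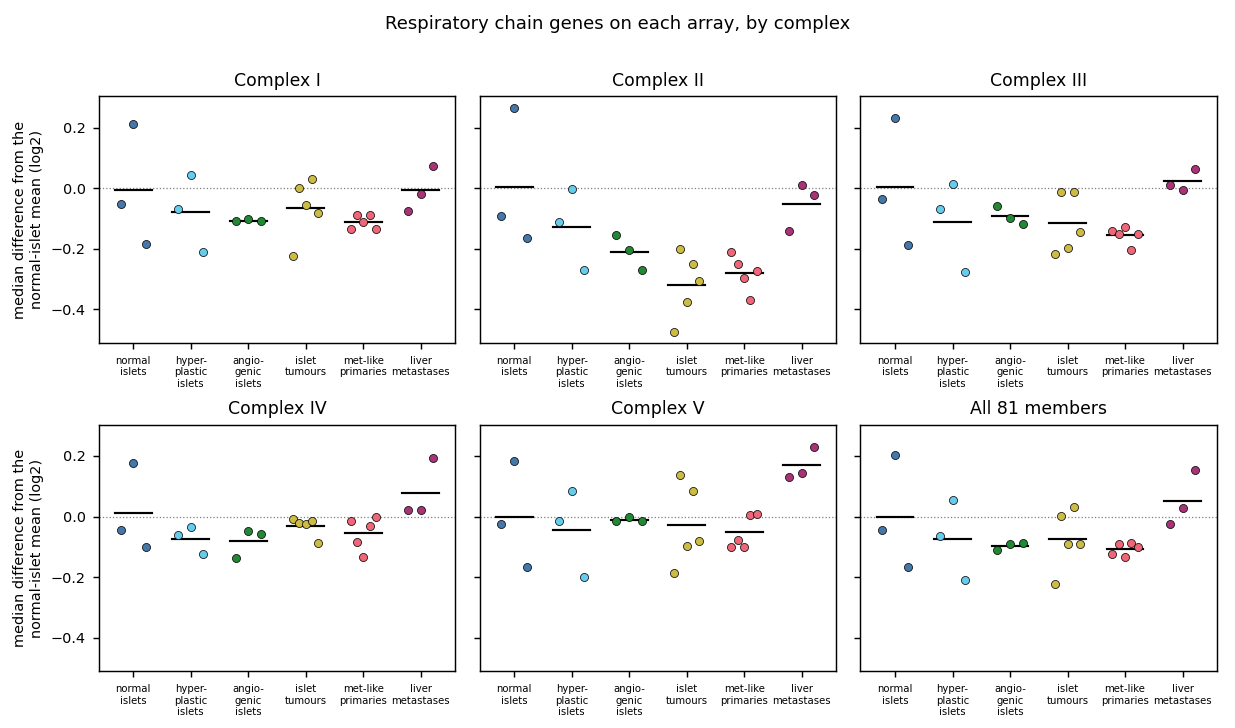
Median over the members of each complex of the log2 difference from the gene's normal-islet mean, 1 point per array, with black bars at the group means and 6 tissue labels on the horizontal axis. The complex II points of islet tumours (-0.47 to -0.20) and met-like primaries (-0.37 to -0.21) cover similar ranges below the normal-islet mean. The complex V points of the liver metastases (0.13 to 0.23) lie above those of the met-like primaries (-0.10 to 0.01).

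Within complex I, the catalytic core showed no shared direction. Its 6 measured nuclear genes are Ndufv1 and Ndufv2, which with Ndufs1 form the NADH-oxidising arm, and Ndufs3, Ndufs7 and Ndufs8, which lead towards the ubiquinone site. In liver metastases against islet tumours Ndufs1 (0.33 ± 0.09, SE) and Ndufv2 (0.22 ± 0.08) rose, Ndufv1 and Ndufs8 fell, and Ndufs3 (0.19) and Ndufs7 (-0.23) did not pass. The call on Ndufv2 was lost without metastasis replicate 2 or 3, or tumour replicate 1 or 3.

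Ndufs3 was the other member, with Cox6a2, to fall at the first step. Its log2 intensity was 10.30, 10.57 and 10.30 in normal islets and 10.17, 10.06 and 10.01 in hyperplastic islets, so the groups did not overlap. The difference was -0.31 ± 0.09 (SE; limma adjusted p = 0.0237). The call was lost with the replicate block (adjusted p = 0.062), without normal islet replicate 2 (-0.22, adjusted p = 0.157) and without hyperplastic islet replicate 2 (adjusted p = 0.0744) or 3 (adjusted p = 0.106). With that block, which pairs islet samples of the same code, 3 members were called, the others being Cox6b2 (0.38, adjusted p = 0.0237) and Ndufv3 (-0.31, adjusted p = 0.0466).

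The accessory subunits of complex I surround the core and serve its assembly and stability. Between met-like primaries and islet tumours 4 of 27 (14.8%) fell and 0 rose, a share near the 14.2% of all genes that fell. Ndufa6 was 9.04, 9.22, 9.02, 9.17 and 9.14 in the islet tumours and 8.70, 8.85, 8.87, 8.57 and 8.75 in the met-like primaries. The groups did not overlap, and the difference was -0.37 ± 0.08 (SE; adjusted p = 0.002). Ndufb11, an X-linked subunit of the membrane arm, fell by 0.36 (adjusted p = 0.0021), and its second probe set gave -0.55. Ndufb8 fell by 0.35 and Ndufa12, which sits near the NADH-oxidising arm, by 0.23. All 4 calls held with each array left out in turn.

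Ndufv3, a small subunit beside the NADH site with a long and a short form, was lower in both tumour classes than in normal islets. It read 9.49, 9.61 and 9.34 in normal islets, between 8.75 and 9.12 in islet tumours and between 8.76 and 8.97 in met-like primaries. The differences were -0.49 ± 0.10 (SE; adjusted p = 0.000955) and -0.64 ± 0.10 (adjusted p = 2.87e-05), and neither call was lost when any 1 array was left out. Ndufa11 (-0.44), Ndufa6 (-0.40) and Ndufa12 (-0.29) also kept their call in the met-like primaries without each array. The fall of Ndufb9 there (-0.55, adjusted p = 0.00427) was lost without normal islet replicate 2 (-0.36, adjusted p = 0.0648).

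Ndufc2, a subunit of the membrane arm, had the largest rise of complex I in liver metastases. Its level was 10.23, 10.15, 9.65, 10.19 and 9.95 in islet tumours, 10.25, 10.30, 10.18, 10.35 and 10.33 in met-like primaries, and 10.65, 10.63 and 10.91 in metastases. The metastases lay above each array of the other tumour groups. The rise was 0.69 ± 0.11 (SE; adjusted p = 4.86e-05) against islet tumours and 0.45 ± 0.11 (adjusted p = 0.00898) against met-like primaries. The latter call was lost without metastasis replicate 3 (0.35, adjusted p = 0.0816). Ndufa9, which binds a lipid at the foot of the peripheral arm, rose by 0.53 against islet tumours.

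Complex II, succinate dehydrogenase, is the one complex with all its subunits encoded in the nucleus and the one shared with the citrate cycle. In islet tumours 3 of its 4 genes were lower than in normal islets (16.1% of all genes), namely the flavoprotein Sdha and the membrane anchors Sdhc and Sdhd, while the iron-sulphur protein Sdhb did not pass (-0.10). The same 3 genes passed in met-like primaries, Sdhc (-0.29, adjusted p = 0.0393) not without normal islet replicate 2 (-0.13, adjusted p = 0.384) or met-like replicate 1, 2 or 3.

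Sdha was 11.09, 10.98 and 11.10 in normal islets and 10.59, 10.90, 10.65, 10.82 and 10.72 in islet tumours. The groups did not overlap, and the difference was -0.32 ± 0.08 (SE; adjusted p = 0.00494), a call that held without each array. In met-like primaries it was -0.23 (adjusted p = 0.0269), with overlapping groups, and was lost without normal islet replicate 1 or 3 or met-like replicate 4 or 5 (adjusted p from 0.0579 to 0.092).

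Sdhd was 9.47, 9.87 and 9.45 in normal islets. The islet tumours read 9.11, 9.05, 9.24, 9.33 and 9.32, and the met-like primaries 9.09, 9.12, 9.03, 9.18 and 9.16. Each tumour array lay below each normal-islet array. The differences were -0.39 ± 0.10 (SE; adjusted p = 0.0052) and -0.48 ± 0.10 (adjusted p = 0.000454). The first was lost without normal islet replicate 2 (-0.25, adjusted p = 0.0737) and the second was kept without each array. Sdhc was 0.40 lower in islet tumours, a call also lost without normal islet replicate 2 (-0.23, adjusted p = 0.137).

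In liver metastases Sdhc was higher than in islet tumours. It read 9.31, 9.64, 9.5, 9.56 and 9.46 in the tumours and 9.76, 9.96 and 10.12 in the metastases, with no overlap. The rise was 0.45 ± 0.11 (SE; adjusted p = 0.00316). Sdha rose by 0.25 (adjusted p = 0.0195), a call lost without metastasis replicate 2 (adjusted p = 0.0668) or 3 (adjusted p = 0.0879). Sdhb and Sdhd did not pass, at 0.10 and 0.13.

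**Figure D2:**
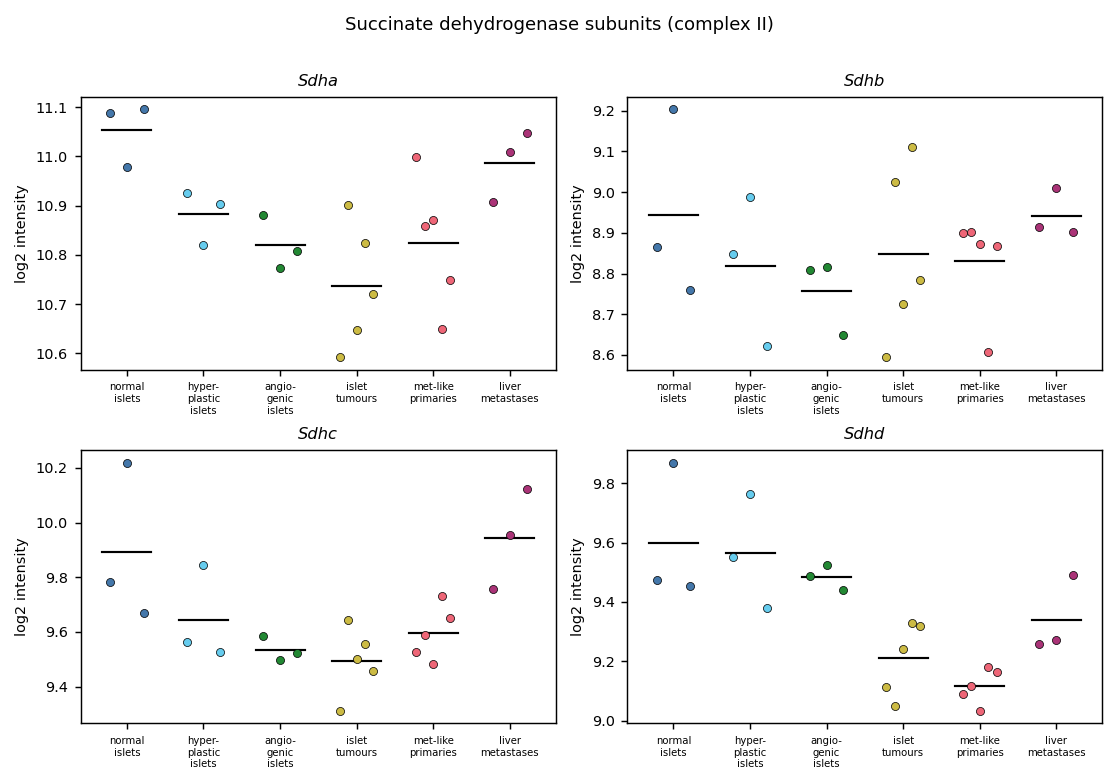
Log2 intensity (vertical axis) of the 4 succinate dehydrogenase genes on each array, 1 point per array, with black bars at the group means and the 6 tissue labels on the horizontal axis. The Sdhd points of islet tumours (9.05 to 9.33) and met-like primaries (9.03 to 9.18) lie below those of normal islets (9.45 to 9.87), whereas Sdhb groups overlap.

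In complex III, Uqcrb, Uqcrc2, Uqcrh, Uqcr10 and Uqcr11 passed the F test over the 6 labels, as did 58.7% of all genes. Uqcrc1, Uqcrfs1 and Uqcrq did not pass it. The accessory subunit Uqcrb, which stabilises cytochrome b, passed in 5 comparisons. Uqcrb was the single member that fell from angiogenic islets to islet tumours. It was 10.95, 10.80 and 10.80 in angiogenic islets and 10.22, 10.64, 10.57, 10.59 and 10.61 in islet tumours. The difference was -0.32 ± 0.10 (SE; adjusted p = 0.0386). It was lost without any one of the 3 angiogenic arrays (adjusted p from 0.0608 to 0.22), without tumour replicate 1 (-0.25, adjusted p = 0.0768) and without tumour replicate 3 (adjusted p = 0.0503).

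In the metastases Uqcrb stood higher again, at 10.99, 10.98 and 11.23, against 10.60, 10.67, 10.72, 10.43 and 10.60 in met-like primaries. The groups did not overlap. The rise was 0.46 ± 0.10 (SE; adjusted p = 0.00216) against met-like primaries and 0.54 ± 0.10 (adjusted p = 0.000147) against islet tumours. Its other probe sets gave 0.57 and 0.54 in the latter comparison. Uqcrc2 rose by 0.52 ± 0.12 (adjusted p = 0.00112) against islet tumours. Its smaller rise from islet tumours to met-like primaries (0.28, adjusted p = 0.0437) was lost in 7 of the 10 fits that left out 1 array, and was 0.15 (adjusted p = 0.112) without tumour replicate 3, the lowest array at 9.96.

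The other complex III calls depended on single arrays. The core protein Uqcrc1 was lower in islet tumours than in normal islets (-0.36 ± 0.13, SE; adjusted p = 0.0414), a call lost without any one of the 3 normal-islet arrays or tumour replicate 1, 2 or 3 (adjusted p from 0.0583 to 0.118). The accessory subunits Uqcr10 (-0.45) and Uqcr11 (-0.41) were lower in met-like primaries than in normal islets, and both calls were lost without normal islet replicate 2 (adjusted p = 0.0704 and 0.125). The hinge protein Uqcrh was 0.40 higher in metastases than in met-like primaries (adjusted p = 0.0157), lost without metastasis replicate 3 (0.29, adjusted p = 0.143). Its rise of 0.28 against islet tumours (adjusted p = 0.0497) was lost without metastasis replicate 2 or 3 or any one of the islet tumours.

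Complex IV held the member with the widest range, Cox6a2, the isoform of subunit VIa that is typical of heart and skeletal muscle. Its level was 10.05, 10.56 and 10.15 in normal islets and 8.78, 8.59 and 8.72 in hyperplastic islets. It was 8.04, 7.95 and 8.17 in angiogenic islets and 7.49, 8.23, 7.58, 7.37 and 7.33 in islet tumours. It was between 7.145 and 7.51 in met-like primaries and 7.54, 7.41 and 7.42 in liver metastases. The 3 islet stages did not overlap each other, whereas the tumour groups did, and each later group lay below all normal islets.

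From normal to hyperplastic islets Cox6a2 fell by 1.56 ± 0.17 on the log2 scale (SE), 2.94-fold, with a limma adjusted p of 8.37e-06. The call held without each array. The next step, to angiogenic islets, was -0.65 ± 0.17 with an adjusted p of 0.0514. It passed with the replicate block, at -0.65 and an adjusted p of 0.0493. In islet tumours Cox6a2 was 6.31-fold lower than in normal islets and in met-like primaries 7.79-fold lower (adjusted p = 1.31e-10 and 5.09e-12).

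The common partner isoform Cox6a1 did not pass at the first step. It was 9.38, 9.59 and 9.17 in normal islets and 9.34, 9.35 and 8.98 in hyperplastic islets, with overlap. Its one call was lower in met-like primaries than in islet tumours (-0.34, adjusted p = 0.0167), lost without met-like replicate 1 (-0.28, adjusted p = 0.0571). A list of 12 striated muscle markers averaged 6.42 to 6.53 in normal islets and 6.31 to 6.64 on the other arrays. The beta-cell marker mean was 11.62 to 11.67 in normal islets and 11.39 to 11.50 in hyperplastic islets, with 0 of 10 markers called. At that step all 9 proliferation markers were higher, with a mean of 6.57 to 8.26 in normal and 9.41 to 9.52 in hyperplastic islets. The part of these cell types and of proliferation in the Cox6a2 values was not tested.

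Cox4i2, the isoform of subunit IV that replaces Cox4i1 in lung and other oxygen-sensing cells, rose at the met-like primaries. It was 7.51, 7.33, 7.56, 7.27 and 7.46 in islet tumours, 8.02, 7.87, 7.94, 9.01 and 8.25 in met-like primaries, and 8.31, 8.26 and 8.06 in liver metastases. All 9 islet arrays lay between 7.31 and 7.69, so the met-like primaries and metastases lay above every other array. The rise was 0.79 ± 0.15 (SE), 1.73-fold, with an adjusted p of 0.000329, and it held without each array. Met-like replicate 4, at 9.01, was the highest.

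Cox4i1, the common isoform, did not pass between met-like primaries and islet tumours (0.12, adjusted p = 0.425). In liver metastases it was 10.09, 10.23 and 10.21, against 9.79, 9.70, 9.64, 9.85 and 9.56 in islet tumours, a rise of 0.47 ± 0.11 (adjusted p = 0.00161). The mean of 9 pericyte markers was 7.74 to 8.03 in islet tumours and 7.56 to 7.74 in met-like primaries. The mean of 12 hypoxia-responsive genes was 8.25 to 8.74 and 8.29 to 8.85 in the same groups. Their part in the Cox4i2 values was not tested.

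Cox7a2l was lower in the met-like primaries. It was 9.64, 10.09 and 9.72 in normal islets. The islet tumours read 9.45, 9.49, 9.29, 9.56 and 9.38. It was 8.96, 8.82, 8.92, 8.82 and 8.91 in met-like primaries and 8.85, 8.91 and 9.13 in liver metastases. The met-like primaries lay below every islet and islet tumour array. The fall from islet tumours was 0.55 ± 0.08 on the log2 scale (SE; adjusted p = 2.75e-05), and its second probe set gave -0.65. Against normal islets it was -0.93 ± 0.10 (adjusted p = 6.39e-08). Both calls held without each array. Ndufa4l2 was low throughout (6.45 to 7.22) and did not pass between these tumour groups (-0.19).

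**Figure D3:**
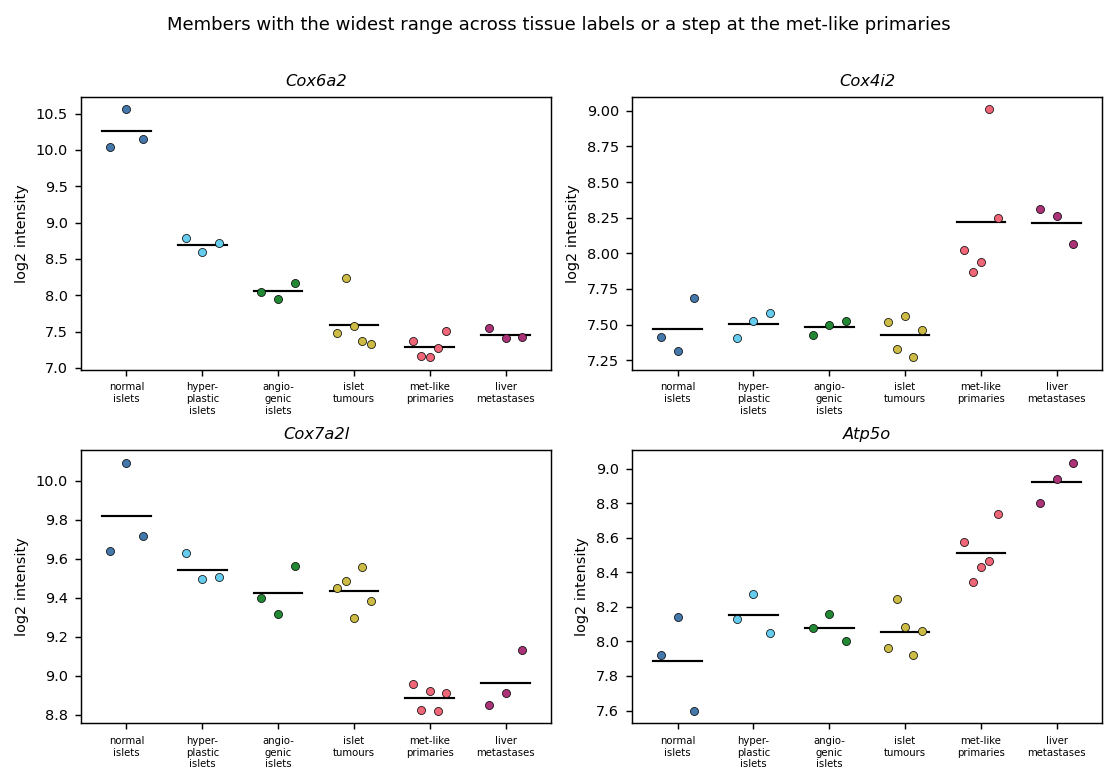
Log2 intensity (vertical axis) of Cox6a2, Cox4i2, Cox7a2l and Atp5o on each array, 1 point per array, with black bars at the group means and the 6 tissue labels on the horizontal axis. Cox6a2 drops from 10.05 or more in normal islets to 8.78 or less in every later group, and Cox4i2, Cox7a2l and Atp5o step between islet tumours and met-like primaries without overlap.

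Few of the other tissue isoforms of complex IV passed. Cox6b2, the testis form, was 6.45 to 6.58 in normal islets and 6.75 to 7.49 in met-like primaries, a rise of 0.62 ± 0.15 (adjusted p = 0.00152). Cox7a1, the muscle form of subunit VIIa, passed once, in liver metastases against islet tumours (0.31, adjusted p = 0.0299), and was lost without metastasis replicate 2 or 3 or tumour replicate 2 or 3. Cox7b2, Cox8b and Cox8c passed in none of the 8 comparisons, at levels of 4.30 to 6.80.

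Of the 9 common complex IV subunits, 5 rose and 1, Cox8a, fell in the metastases against islet tumours (17.3% and 19.3% of all genes), with a median of 0.36. Cox5b (0.08), Cox6c (0.13) and Cox6a1 (-0.04) did not pass. Cox5a was 8.02, 7.85, 7.94, 8.24 and 7.94 in islet tumours, 7.87, 7.93, 7.88, 8.59 and 8.21 in met-like primaries and 8.597, 8.69 and 8.95 in metastases. The lowest metastasis stood just above the highest met-like primary, replicate 4. The rises were 0.75 ± 0.14 (SE; adjusted p = 0.000286) against islet tumours and 0.65 ± 0.14 (adjusted p = 0.00333) against met-like primaries, both kept without each array. Cox7a2, the common form of subunit VIIa, rose by 0.54 ± 0.12 against islet tumours (adjusted p = 0.000867). Ndufa4 was 0.39 higher in metastases than in met-like primaries (adjusted p = 0.0109), a call lost without metastasis replicate 3 (0.34, adjusted p = 0.0737).

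In complex V the peripheral stalk subunit Atp5o, also called OSCP, which links the F1 head to the stalk, changed most. It was 7.92, 8.14 and 7.60 in normal islets. The islet tumours read 7.96, 8.24, 8.08, 7.92 and 8.06. It was 8.58, 8.34, 8.43, 8.47 and 8.74 in met-like primaries and 8.80, 8.94 and 9.04 in liver metastases. Islet tumours, met-like primaries and metastases did not overlap. The rise to met-like primaries was 0.46 ± 0.09 (SE; adjusted p = 0.000805), and that from islet tumours to metastases was 0.87 ± 0.11 (adjusted p = 2.06e-06), both kept without each array. Between met-like primaries and metastases it was 0.42 ± 0.11 (adjusted p = 0.0121), lost without metastasis replicate 2 (adjusted p = 0.0501) or 3 (0.36, adjusted p = 0.079). Atp5o lies on chromosome 16. The median over the genes of that chromosome stood at -0.13 and -0.23 from the normal-islet mean on the tumours reading 7.96 and 7.92. On the other islet tumours it stood at -0.04 to 0.07, and these read 8.06 to 8.24, below every met-like primary. The part of this chromosome shift in the Atp5o rises was not tested.

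Other parts of the enzyme rose in the metastases too. The central stalk subunit Atp5c1 (gamma) was 11.38, 11.60, 11.48, 11.56 and 11.53 in islet tumours and 11.96, 12.09 and 11.95 in metastases, with no overlap. The rise was 0.49 ± 0.07 (SE; adjusted p = 1.08e-05). Atp5g3, a copy of the c-ring subunit, rose by 0.56 ± 0.10 (adjusted p = 0.000161), while Atp5g1 (0.30) and Atp5g2 (-0.33) did not pass. Of the F1 catalytic pair Atp5a1 rose by 0.32 (adjusted p = 0.00217) and Atp5b did not pass (0.21, adjusted p = 0.0663).

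Of the 17 complex V genes, 3 were lower and 2 higher in met-like primaries than in normal islets (23.3% and 19.5% of all genes), with a median of -0.01. Atp5l, a subunit at the dimer interface, was 9.39, 9.81 and 9.36 in normal islets and 8.89 to 9.09 in met-like primaries, without overlap. The difference was -0.54 ± 0.11 (SE; adjusted p = 0.000309), and the lowest and highest of its 6 probe sets gave -0.56 and -0.52. Atp5e, the epsilon subunit of the central stalk, differed by -0.53 (adjusted p = 0.00304), lost without normal islet replicate 2 (-0.32, adjusted p = 0.0527). Atp5d, the delta subunit of the central stalk, differed by -0.40 (adjusted p = 0.0238), lost without normal islet replicate 1 (adjusted p = 0.0595) or 2 (-0.30, adjusted p = 0.14) or met-like replicate 2 (adjusted p = 0.0558).

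The rises in the metastases stood beside the liver signal. Hepatocyte markers were higher in metastases for 15 of 16 genes against met-like primaries and 16 of 16 against islet tumours, with median differences of 3.52 and 4.05. The list's mean was 10.03 to 10.53 in the metastases, 6.65 to 6.97 in met-like primaries and 6.41 to 6.67 in islet tumours. Albumin (Alb) was 12.9 to 13.2, 7.61 to 11.8 and 6.04 to 8.24 in those groups. Acinar markers were lower in the metastases for 5 and 8 of 8 genes. With the hepatocyte mean as a covariate, 0 members were called in either comparison, but the covariate nearly coincides with the group and left only 0.0602% and 0.436% of all genes called. Hepatocyte RNA and the metastatic state cannot be told apart here.

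The count of rises also depended on single arrays. Without metastasis replicate 3 there were 5 higher and 5 lower against met-like primaries, and 14 higher and 6 lower against islet tumours. Without metastasis replicate 2 there were 9 higher and 2 lower against met-like primaries, and without met-like replicate 1 there were 12 higher and 3 lower. Against islet tumours there were 20 higher and 10 lower without tumour replicate 1, and 32 higher and 6 lower without tumour replicate 4. Calls that held without each array numbered 6 of 23 against met-like primaries (Atp5c1, Atp5g3, Cox5a and Uqcrb higher, Ndufb8 and Ndufs8 lower) and 19 of 35 against islet tumours (14 higher and 5 lower). Fewer arrays lower the power for every gene, and the shares of all genes called in these fits are not set beside the counts. A loss of calls particular to the members is therefore not shown. On the median over all members, metastasis replicate 3 stood at 0.16 above the normal-islet mean and the others at -0.02 and 0.03.

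**Figure D4:**
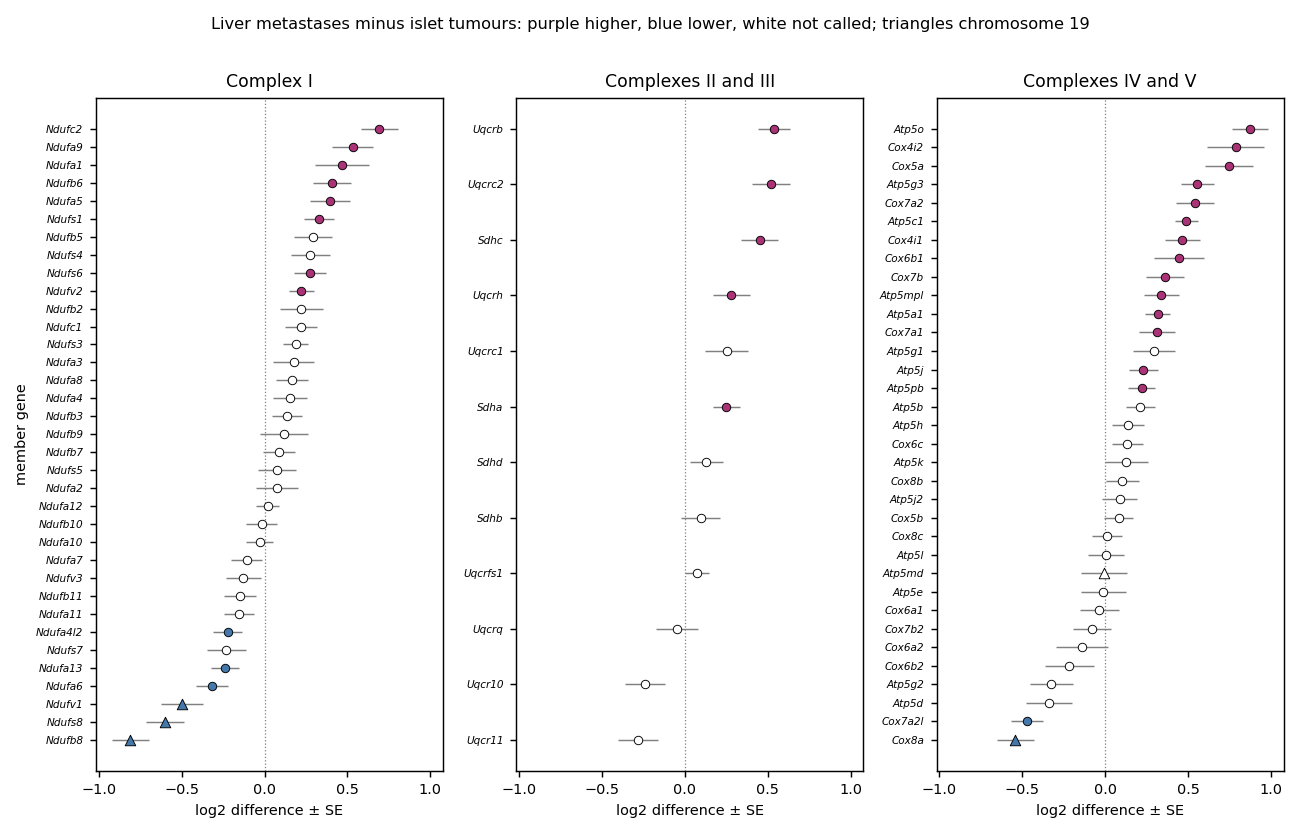
Log2 difference, liver metastases minus islet tumours, of each of the 81 members (horizontal axis) with its standard error, ordered within complexes; purple marks 27 genes called higher, blue 8 called lower and white those not called, with triangles for genes of chromosome 19. Atp5o (0.87) lies highest and Ndufb8 (-0.81) lowest, and 4 of the 5 triangles are blue.

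Of the genes that fell in the metastases, 4 lie on 1 chromosome, a grouping noticed after their values were seen. Of the 81 members, 5 lie on mouse chromosome 19, namely Ndufb8, Ndufs8, Ndufv1, Cox8a and Atp5md. Against met-like primaries 4 of these 5 fell and 0 rose, whereas among the 76 members elsewhere 1 fell (Cox6b2, lost without metastasis replicate 1 or 2 or met-like replicate 1, 4 or 5) and 18 rose. Against islet tumours the same 4 fell, and elsewhere 4 fell and 27 rose. The median difference was -0.45 on chromosome 19 and 0.19 elsewhere in the former comparison, and -0.54 and 0.14 in the latter.

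Ndufs8, an iron-sulphur protein at the end of the peripheral arm, was 8.52, 8.73, 8.73, 8.61 and 8.68 in islet tumours, 8.54, 8.53, 8.57, 8.745 and 8.58 in met-like primaries and 7.999, 8.04 and 8.13 in metastases. All 3 metastases lay below each of the other 19 arrays. The differences were -0.60 ± 0.12 (SE; adjusted p = 0.000291) against islet tumours and -0.54 ± 0.12 (adjusted p = 0.0026) against met-like primaries. Ndufb8 fell by 0.81 ± 0.11 and 0.46 ± 0.11 in the same comparisons (adjusted p = 8.56e-06 and 0.00825).

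Ndufv1, which carries the flavin that accepts electrons from NADH, was 9.13, 9.15 and 9.26 in metastases, against 9.41 to 9.74 in met-like primaries. In islet tumours it was 9.67 to 9.92 apart from replicate 1, at 9.18. Against islet tumours it was -0.50 ± 0.13 (SE; adjusted p = 0.0036), and against met-like primaries -0.45 (adjusted p = 0.0175), lost without metastasis replicate 1 (adjusted p = 0.0725) or 2 (adjusted p = 0.0703). Cox8a, the smallest common subunit of complex IV, fell by 0.54 ± 0.11 against islet tumours. Its fall of 0.35 against met-like primaries (adjusted p = 0.0396) was lost without metastasis replicate 1 (-0.29) or 2 (-0.26) or met-like replicate 1, 2, 3 or 4 (adjusted p from 0.0599 to 0.221). Metastasis replicate 3, at 9.63, was within the met-like range. Atp5md did not pass (0.06 and -0.01).

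With the members left out, the 670 other genes of chromosome 19 had a median difference of -0.27 against met-like primaries and -0.30 against islet tumours, while the medians of the other chromosomes lay between -0.03 and 0.02 and between -0.06 and 0.05. Of those 670 genes, 42.7% were called lower and 4.03% higher against met-like primaries, against 7.88% and 7.75% over all non-member genes. On single arrays the chromosome's median stood at -0.25, -0.21 and -0.22 from the normal-islet mean in the metastases and at -0.10 or above on the other 19 arrays. DNA copy number was not measured, and a cause of the shift was not tested. The 3 metastases share the same number at the start of their labels, and whether they came from 1 animal is not given.

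**Figure D5:**
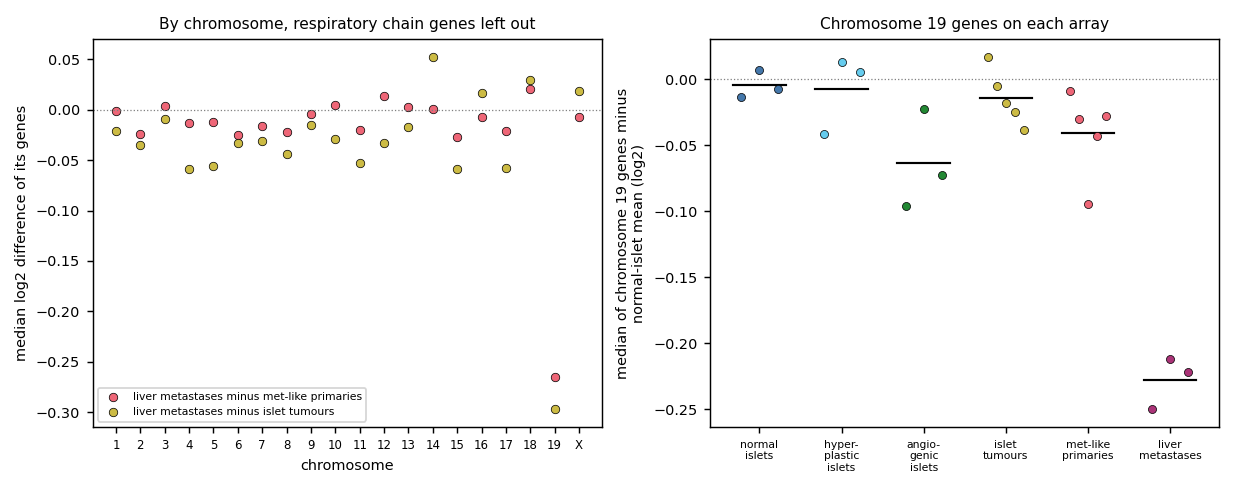
Left, median log2 difference (vertical axis) of the genes on each chromosome (horizontal axis), respiratory chain genes left out, in liver metastases against met-like primaries and against islet tumours. Right, the median log2 difference of chromosome 19 genes from the normal-islet mean, 1 point per array with bars at group means; chromosome 19 stands at -0.27 and -0.30, and each of the 3 metastases at -0.21 or lower.

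The start regions of the 4 subunits of chromosome 19 that fell and of some strong risers are shown, because most called subunits elsewhere rose. Subunits elsewhere that fell are not shown. They are RefSeq windows of 300 bases, from 250 before to 50 after the start site, in GRCm38.p6, written 5′ to 3′ on the gene's strand. Capitals mark matches, on either strand, to CCGGAAG (the core of ETS factors such as GABP), AAGATGG (YY1) or CCAAT, which do not overlap one another. GCATGCG, the core of NRF1 sites, was also searched and had no match in these windows. The Ndufs8 and Ndufv1 start windows lie 99.7 kb apart.
Ndufs8, chr19:3912725-3913024, minus strand: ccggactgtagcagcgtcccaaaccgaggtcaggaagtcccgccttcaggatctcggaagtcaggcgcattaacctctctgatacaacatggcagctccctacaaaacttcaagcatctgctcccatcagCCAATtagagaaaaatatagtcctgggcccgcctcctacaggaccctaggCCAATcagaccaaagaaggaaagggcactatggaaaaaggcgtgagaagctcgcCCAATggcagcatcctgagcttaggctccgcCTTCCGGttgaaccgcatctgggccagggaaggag
Ndufv1, chr19:4012706-4013005, minus strand: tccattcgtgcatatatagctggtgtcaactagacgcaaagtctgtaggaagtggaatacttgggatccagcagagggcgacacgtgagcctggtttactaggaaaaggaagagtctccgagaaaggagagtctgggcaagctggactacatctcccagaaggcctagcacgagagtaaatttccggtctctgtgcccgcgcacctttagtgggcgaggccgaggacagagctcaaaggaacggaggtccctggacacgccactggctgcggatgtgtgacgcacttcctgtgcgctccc
Ndufb8, chr19:44555393-44555692, minus strand: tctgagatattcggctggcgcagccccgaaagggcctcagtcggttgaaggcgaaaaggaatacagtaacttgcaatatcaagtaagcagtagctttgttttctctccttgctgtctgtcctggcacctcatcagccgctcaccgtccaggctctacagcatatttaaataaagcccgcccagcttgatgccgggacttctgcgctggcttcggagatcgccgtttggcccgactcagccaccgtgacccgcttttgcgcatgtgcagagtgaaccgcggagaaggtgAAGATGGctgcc
Cox8a, chr19:7217567-7217866, minus strand: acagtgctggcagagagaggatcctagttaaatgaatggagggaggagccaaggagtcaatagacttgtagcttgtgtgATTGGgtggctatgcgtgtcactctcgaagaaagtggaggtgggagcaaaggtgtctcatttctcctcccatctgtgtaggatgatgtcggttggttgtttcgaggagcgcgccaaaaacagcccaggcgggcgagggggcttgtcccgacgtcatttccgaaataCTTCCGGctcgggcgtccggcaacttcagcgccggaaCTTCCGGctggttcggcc
Cox5a, chr9:57520982-57521281, plus strand: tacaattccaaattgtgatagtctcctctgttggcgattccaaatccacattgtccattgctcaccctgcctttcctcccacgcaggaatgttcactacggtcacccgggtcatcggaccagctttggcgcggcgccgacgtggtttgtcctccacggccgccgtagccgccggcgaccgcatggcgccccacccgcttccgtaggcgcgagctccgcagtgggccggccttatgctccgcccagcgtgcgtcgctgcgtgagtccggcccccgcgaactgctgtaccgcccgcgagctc
Atp5o, chr16:91931581-91931880, minus strand: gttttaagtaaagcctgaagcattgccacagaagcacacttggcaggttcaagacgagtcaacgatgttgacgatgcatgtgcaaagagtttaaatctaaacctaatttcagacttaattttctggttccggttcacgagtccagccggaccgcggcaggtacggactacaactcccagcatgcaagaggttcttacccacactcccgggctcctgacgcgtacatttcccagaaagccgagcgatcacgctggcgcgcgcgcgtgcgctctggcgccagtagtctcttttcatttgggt
Ndufc2, chr7:97399753-97400052, plus strand: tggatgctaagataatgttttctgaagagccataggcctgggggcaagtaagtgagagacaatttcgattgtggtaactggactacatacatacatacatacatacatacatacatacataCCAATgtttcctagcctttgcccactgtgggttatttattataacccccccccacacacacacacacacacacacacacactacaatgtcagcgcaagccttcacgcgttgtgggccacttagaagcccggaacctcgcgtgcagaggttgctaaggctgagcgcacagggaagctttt
The windows of the 4 chromosome 19 genes that fell hold different letters. Ndufs8 has 1 ETS core and 3 CCAAT boxes, Cox8a 2 ETS cores and 1 CCAAT box, Ndufb8 1 YY1 core and Ndufv1 none of the motifs searched. Of the risers shown, Cox5a and Atp5o hold none and Ndufc2 a single CCAAT box. A match is a description of letters and not a shown binding site.

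Across the 66 members with a window in the table, 25.8% held the ETS core against 9.93% of all 27025 genes listed, 16.7% held the NRF1 core against 4.01%, and 15.2% the YY1 core against 7.28%. CCAAT was held by 43.9% against 41.1%. At least 1 of NRF1, ETS and YY1 was held by 45.2% of the 31 complex I windows, 66.7% of 3 in complex II, 60% of 5 in complex III, 25% of 12 in complex IV and 60% of 15 in complex V, against 19.3% of all genes. Members without a window are Atp5a1, Atp5mpl, Cox4i1, Cox4i2, Cox6a2, Cox6c, Cox8c, Ndufa2, Ndufa4l2, Ndufb9, Ndufs1, Sdhc, Uqcrb, Uqcrc2 and Uqcrq.

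Among regulators of mitochondrial biogenesis, Ppargc1a, the coactivator PGC-1 alpha, rose most. It was 5.48, 5.79, 5.73, 5.92 and 5.685 in islet tumours and 8.30, 7.78, 7.78, 8.49 and 8.45 in met-like primaries. It was 8.56, 8.99 and 8.88 in liver metastases. The groups did not overlap, and the rise to met-like primaries was 2.44 ± 0.14 on the log2 scale (SE; adjusted p = 5.46e-11), a step at which the 81 members had a median of -0.03.

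Its relative Ppargc1b fell by 0.57 at the same step (adjusted p = 5.05e-06). Lrpprc, which stabilises mitochondrial messenger RNA, was 10.4 to 10.6 in islet tumours and 9.70 to 10.1 in met-like primaries, and fell by 0.62 (adjusted p = 5.05e-05). Nrf1 (-0.09), Gabpa (0.01), Tfam (0.03) and Esrra (-0.09) did not pass. Of the 20 regulators 2 rose and 3 fell, 25% against 26.5% of all genes.

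Among 30 factors for complexes II to V, 10 fell and 1 rose from normal islets to islet tumours (16.1% and 13% of all genes). To met-like primaries 15 fell and 3 rose (23.3% and 19.5% of all genes). How far these counts depend on normal islet replicate 2, as the member counts did, was not tested. Coa5 (-0.54), Uqcc1 (-0.46) and Atpaf1 (-0.39), which serve complexes IV, III and V, had the smallest adjusted p of those falls in islet tumours. Higd1a, which associates with complexes III and IV, rose from 5.88 to 6.51 in islet tumours to 7.98 to 8.39 in met-like primaries, by 2.06 ± 0.14 (SE; adjusted p = 2.93e-10). Of 15 complex I assembly factors 3 rose and 2 fell between normal islets and islet tumours, 33.3% against 29% of all genes.

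In islet tumours 8 of 18 genes that supply ubiquinone, haem and iron-sulphur clusters were lower than in normal islets (16.1% of all genes) and 0 higher. In met-like primaries 12 were lower (23.3% of all genes) and 1 higher. The dependence of these counts on normal islet replicate 2 was not tested either. Coq8a, a kinase-like protein of ubiquinone synthesis, was 8.79, 8.37 and 8.59 in normal islets and 7.66 to 7.86 in islet tumours, a difference of -0.82 ± 0.09 (SE; adjusted p = 4.88e-07). The cysteine desulphurase Nfs1 differed by -0.59 and the scaffold Iscu by -0.49. Iscu was also lower in hyperplastic islets (-0.40, adjusted p = 0.0185).

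Of 15 subunits and carriers with other names, 6 rose and 0 fell in metastases against met-like primaries (7.8% and 7.87% of all genes). Cytochrome c (Cycs) was 9.65, 9.59, 9.74, 9.71 and 9.96 in met-like primaries and 10.42, 10.48 and 10.62 in metastases, with no overlap. The rise was 0.78 ± 0.09 (SE; adjusted p = 2.61e-06). Cyc1, the cytochrome c1 of complex III, rose by 0.36 (adjusted p = 0.0343), and the ATP and ADP exchanger Slc25a4 by 0.26.

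Of the 98 genes of these lists, 6 lie on chromosome 19 (Esrra, Pprc1, Twnk, Cox15, Sdhaf2 and Uqcc3). All 6 were lower in metastases in both comparisons, from -0.25 for Esrra to -0.52 for Uqcc3 against met-like primaries. Of all genes, 7.87% were lower against met-like primaries and 19.3% against islet tumours. Among the 92 listed elsewhere 3 fell and 17 rose against met-like primaries (7.87% and 7.8% of all genes). None of the 6 passed between met-like primaries and islet tumours (-0.12 to 0.16). That these genes and the 4 subunits share a chromosome was seen after their values.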

How the data were processed

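The deposited values are log2 intensities of 35511 probe sets on 22 arrays, which the authors processed with aroma.affymetrix, per the series' design text; the summary method and version are not stated in those sources. Of these probe sets, 23410 are in the platform's gene table, of which 21789 have 1 symbol and 1621 several (not used), and 12101 are not listed. The probe set with the highest mean stood for each of 19938 genes. RefSeq chromosomes were matched by Entrez ID for 19855 genes. limma 3.58.1 in R 4.3.3 fitted 1 mean per group to all 22 arrays, with Benjamini-Hochberg adjustment over all genes per comparison and the call set at 0.05. Errors are limma standard errors. Other scalings, variance settings, covariates, blocks and sets of arrays were tried. On simulated data 51.5% of changes of 0.5 log2 and 92.5% of 1 log2 were recovered between normal and hyperplastic islets, and 61.5% and 97.5% between metastases and islet tumours, with 200 genes changed. In the data 1722 and 7296 genes were called in these comparisons. The adjustment cut therefore differs, and the recovered shares are not the power of the calls reported. The number of arrays limits the precision.

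Members, gene lists and tests were chosen with earlier results of these data known. Members named are, per comparison and complex, up to 3 called in each direction by adjusted p, the 8 of widest range, the Sdh genes, the isoforms and their partners, the c-ring genes and the catalytic or core subunits; of the other lists, up to 3 called genes per comparison plus fixed regulators and cytochromes. Ndufb9, Atp5md and the genes of chromosome 19 outside this rule were named after their values were seen. Islet samples of the same code deviated together between normal and hyperplastic (correlations of 0.20 to 0.45) and between hyperplastic and angiogenic islets (0.35 to 0.48). Between normal and angiogenic islets they did so weakly (0.06 to 0.14, against -0.09 to 0.04 for other codes). The codes were taken to pair the islet samples. Tumour codes did not pair theirs.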

Additional observations from a re-analysis of the deposited data

Results flagged for a closer look

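Of 110 tests for a sample far from the rest of its group (groups of 5 only), 8 passed Dixon's 95% limit; chance passes about 1 in 20. In the islet tumours, replicate 1 stood below the others for Atp5e (8.69, others 8.95 to 9.01), Atp5g3 (10.565, others 10.92 to 11.01), Ndufs7 (9.81, others 10.2 to 10.33) and Uqcrb (10.22, others 10.57 to 10.64). Islet tumour replicate 2 stood above the others for Cox6a2 (8.23, others 7.325 to 7.58). In the met-like primaries, replicate 4 stood above the others for Ndufb6 (9.78, others 9.535 to 9.59) and Ndufs8 (8.745, others 8.53 to 8.58), and below them for Sdhb (8.61, others 8.87 to 8.90).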

How the results depend on the processing

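Apart from fits that left out 1 array, counts of called members differed most from those reported, as a ratio, in these cases. Smaller differences under other settings are not listed. From hyperplastic to angiogenic islets, 1 member, Cox6a2, was lower in place of 0 with the replicate block, in fits of only the arrays compared, after quantile normalisation or median centring, without dim genes, with array weights, and with a trended and robust variance. From angiogenic islets to islet tumours the count of 1 became 0 with only the arrays compared, with a hepatocyte covariate, or without the 2 islet tumours of low chromosome 16 median (replicates 1 and 4, added after seeing the data), 2 without dim genes and 3 with an acinar covariate. For islet tumours against normal islets it was 7 with only the arrays compared. For met-like primaries against islet tumours it was 16 with the replicate block, although the tumour codes did not pair the samples (correlations of -0.09 to 0.21). Against met-like primaries the metastases gave 38 with array weights and 0 with the hepatocyte covariate; against islet tumours they gave 0 with that covariate, and over the 6 labels 22. A block could not be fitted between islets and tumours.

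With each array left out, counts ranged from 1 to 2 (hyperplastic against normal), 0 to 1 (angiogenic against hyperplastic), 0 to 3 (tumours against angiogenic), 7 to 14 (met-like against tumours), 10 to 22 (metastases against met-like), 8 to 15 (tumours against normal), 18 to 32 (met-like against normal), 20 to 38 (metastases against tumours) and 35 to 52 (6 labels). Directions reversed only with the hepatocyte covariate, for Cox4i1 (-0.037) and Ndufa12 (-0.23) against met-like primaries and Cox7a1 (-0.19) against islet tumours; the cause was not tested.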
